A study of Mus musculus with 10 samples.

Results

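Resident macrophages of mouse bone marrow were compared with macrophages grown from the same organ in culture, both labelled untreated. The libraries were taken by their source labels: 3 untreated resident libraries and 2 untreated libraries of bone marrow derived macrophages (BMDM), 5 of the 10 RNA sequencing libraries of the series, with all 13809 genes of the deposited table. All came from C57BL/6 mice of 12 weeks, and the labels name no engineered allele. The resident group is the ferromagnetic fraction of femur and tibia marrow, the unstained cells that a magnetic column held back, and is labelled CD163+. The BMDM group is labelled CD163- and began as the cells that ran through that column, which were then grown in DMEM with 10% serum and 20% L929 supernatant, a source of the growth factor CSF1, for 6 days by the protocol and 7 days by the titles. Untreated libraries of both groups were taken at 4 h without lipopolysaccharide (LPS). The other 3 resident and 2 BMDM libraries, given 1 µg/ml LPS for 4 h, entered the shared estimate of the spread and a count at the end.

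Macrophages of the marrow sit in erythroblastic islands, where they hold maturing red cell precursors, take up the nuclei these expel and engulf worn red cells. Heme from engulfed cells is opened by heme oxygenase 1, the iron leaves the cell through ferroportin, and heme itself induces the transcription factor SPI-C, on which such macrophages depend. BMDM are the standard culture model of the macrophage: progenitors that divide and mature under CSF1 into large, adherent, lysosome-rich cells.

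The deposited values are reads per gene divided by a factor per library, called normalized reads below, with a lowest value of 1. They correspond to 27.1 to 34.7 M reads in the 5 libraries. Libraries were close within groups (Pearson correlations of log2 values across genes of 0.982 to 0.990 among resident libraries and 0.995 between the BMDM libraries) and less so between them (0.808 to 0.830). Resident replicate 1 stood apart in sex-linked transcripts: Ddx3y was listed at 1856 there and at 1 in the other 4 libraries, and Xist at 1651 against 7873 to 11489. In BMDM replicate 2 the ribosomal RNA precursor Rn45s took 4.70% of all values, against 0.232 to 0.981% elsewhere. Without resident replicate 1 the counts of genes called higher and lower (given next) were 5434 and 4458, and without BMDM replicate 2 they were 4742 and 3697. Neither the labels nor the protocols say whether replicates are separate mice or cultures. Ddx3y, Eif2s3y, Kdm5d and Uty, all Y-linked, were above the lowest value in resident replicate 1 alone. That library thus held male cells and was not a repeat of the same material as resident replicates 2 and 3. The p-values rest on library-to-library spread, which may otherwise be technical.

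Of 13755 genes tested with limma, 9883 (71.9%) were called at a Benjamini-Hochberg adjusted p under 0.05, 5393 (39.2%) higher and 4490 (32.6%) lower in resident libraries. The median gene differed by 0.08 on the log2 scale. At a difference of at least 2-fold the counts were 3395 (24.7%) higher and 2075 (15.1%) lower, and at 16-fold 763 (5.55%) and 114 (0.829%). Between the groups, 6111 genes (44.4%) had all 3 resident libraries above both BMDM libraries and 5268 (38.3%) all below. With so many calls, a list with about 39.2% of its members higher and 32.6% lower is close to the background. A gene at the lowest value in both BMDM libraries can only be called higher or not called. The split depends on scaling: quantile scaling gave 4124 higher and 5804 lower, with the median gene at -0.18. Origin, days of culture and the mix of cells differed together between the groups and cannot be told apart, nor in bulk RNA can fewer cells of a type and less RNA per cell. Differences below are resident minus BMDM in log2(value + 1), ± SE, and levels are means ± SD over 3 resident and 2 BMDM libraries, or single libraries in the order of their replicate numbers, which follow the order of deposit and pair no libraries.

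**Figure D1:**
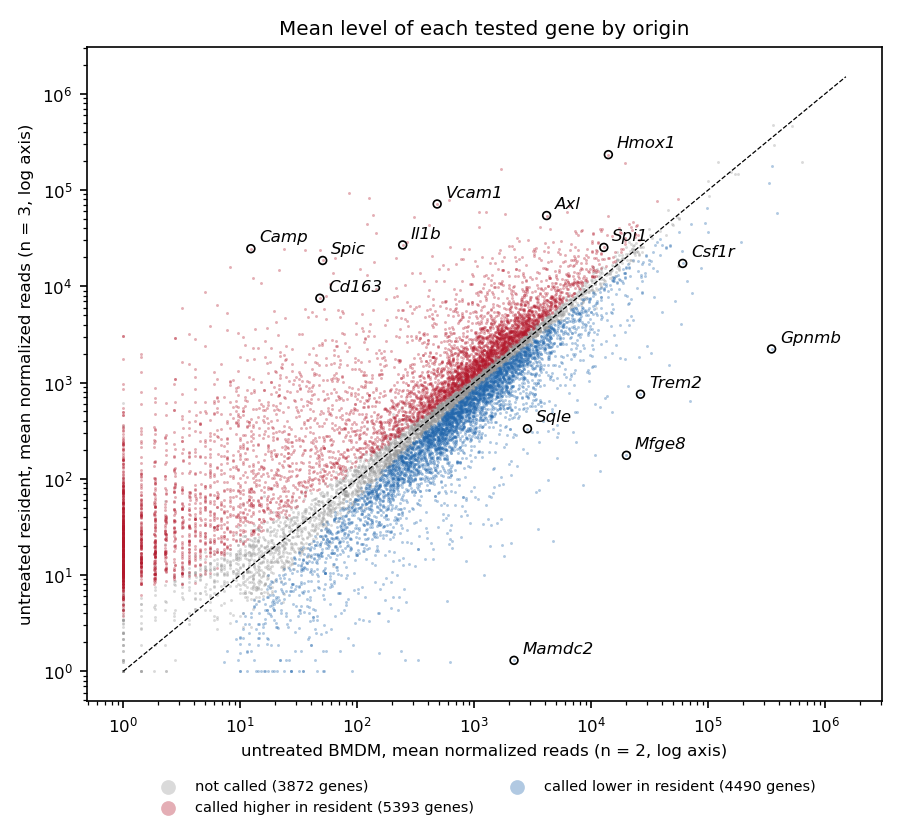
Mean normalized reads of each tested gene in untreated BMDM (x axis, n = 2) and untreated resident macrophages (y axis, n = 3), both on log axes. Red points are the 5393 genes called higher and blue points the 4490 called lower in resident libraries, the dashed line marks equal means, and island genes such as Spic and Vcam1 lie far above it while Gpnmb, Trem2 and Mfge8 lie far below.

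Genes that mark macrophages in general were mostly lower in the resident fraction, while those of island macrophages were nearly all higher. Of 21 core macrophage genes, 4 were higher and 12 lower, with a median of -0.88. Their summed level, as a share of all values of a library, was 1.47%, 1.15% and 1.16% of the resident libraries and 3.41% and 3.17% of the BMDM libraries. The single gene Lyz2 made up a larger part of the BMDM sums than of the resident sums (values below). Of 20 island macrophage genes, 19 were higher and 1 lower, with a median of 3.55, and their sum was 2.35%, 1.83% and 1.99% of the resident libraries and 0.275% and 0.252% of the BMDM libraries.

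Cd163, the hemoglobin-haptoglobin scavenger receptor by which the groups are labelled, was listed at 10740.4, 5282 and 6487 in the resident libraries and 41.9 and 53.9 in the BMDM libraries. Every resident library stood above both BMDM libraries, a difference of 7.21 ± 0.27 (adjusted p = 6.4e-09), so the transcript followed its label. Csf1r, the receptor through which CSF1 keeps macrophages alive, ran the other way at 20844, 14637 and 16277 in the resident libraries and 61248 and 59633 in the BMDM libraries (-1.82 ± 0.15, adjusted p = 2.3e-06). The surface markers of the class were also lower: Adgre1, which codes for F4/80 (-1.08 ± 0.23) and Itgam, which codes for CD11b (-1.68 ± 0.14). Lyz2, lysozyme, was at 68987, 51746 and 51912 in the resident libraries and 389702 and 377817 in the BMDM libraries, all resident values well below the BMDM values (-2.75 ± 0.24). The core genes together summed to 455600, 319400 and 306800 in the resident libraries and 842100 and 822300 in the BMDM libraries. Trem2, a lipid-sensing receptor of phagocytes, differed most among core genes, at 1268, 530.0 and 469.6 in the resident libraries and 26523 and 26176 in the BMDM libraries (-5.27 ± 0.43). Replicate 1 was the highest of the resident libraries for Csf1r, Adgre1, Lyz2 and Trem2 alike. Mertk and C1qa were higher, by 2.76 ± 0.19 and 2.18 ± 0.22. Cd14, the LPS co-receptor, was not called (28219 ± 13612 against 24022 ± 744, 0.13 ± 0.34).

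Spic, the heme-induced factor of iron-recycling macrophages, showed the widest gap of the island list, at 23425, 15989 and 16137 in the resident libraries and 51.0 and 50.3 in the BMDM libraries (8.46 ± 0.15, adjusted p = 1.5e-10). Vcam1, which binds erythroblasts through their integrin, stood at 88787, 63273 and 62423 in the resident libraries and 531 and 432 in the BMDM libraries. Resident values did not come near the BMDM values in any library, and the difference was 7.20 ± 0.16. Timd4, a receptor for phosphatidylserine on dying cells, was at 4012, 5300.5 and 4593 in the resident libraries and 21.9 and 26.5 in the BMDM libraries (7.52 ± 0.23). Fcna, the soluble lectin ficolin A, was higher by 7.41 ± 0.17. Siglec1, the sialic acid receptor CD169 that is used to define these cells, was higher by only 1.26 ± 0.13, at 4163, 3888 and 4608 in the resident libraries and 1794 and 1712 in the BMDM libraries. The groups still did not overlap. Dnase2a, the lysosomal enzyme that digests the DNA of expelled nuclei, was the 1 island gene called lower (1469.9 ± 154 against 5340.0 ± 124, -1.87 ± 0.11).

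**Figure D2:**
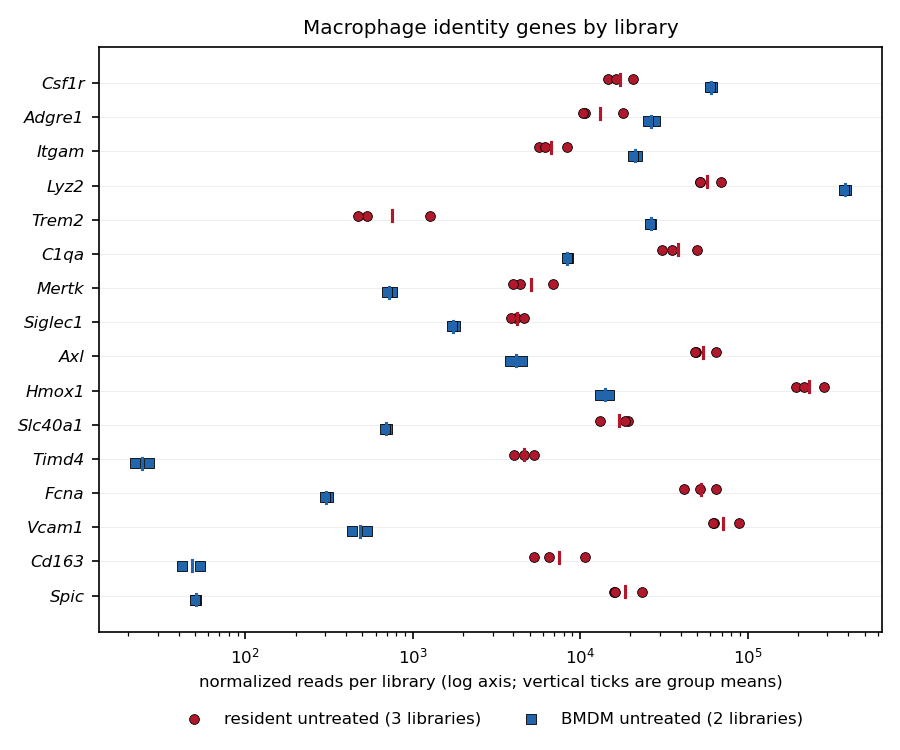
Normalized reads (log axis) of macrophage genes in each untreated library, circles for the 3 resident and squares for the 2 BMDM libraries, with a vertical tick at each group mean. Csf1r, Adgre1, Itgam, Lyz2 and Trem2 lie to the left in resident libraries. The core genes C1qa and Mertk and the island genes from Siglec1 to Spic lie to the right without overlap.

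The genes that open heme and export its iron were higher in resident libraries, while some genes that move heme and iron within the cell were lower. Hmox1, which opens the heme ring, was listed at 286950.0, 194797 and 216462 in the resident libraries and 14817 and 13188 in the BMDM libraries, with no overlap between the groups. The difference was 4.04 ± 0.21 (adjusted p = 7.7e-08). Slc40a1, ferroportin, was at 19339, 13132 and 18442 in the resident libraries and 701 and 683 in the BMDM libraries (4.59 ± 0.17). Of 31 heme and iron genes, 20 were higher and 6 lower, with a median of 1.03. Slc48a1, which carries heme out of the phagolysosome, was lower (-0.73 ± 0.16), as were the biliverdin reductase Blvra (-0.73 ± 0.12) and the ferrireductase Steap3 (-3.77 ± 0.25). The ferritin genes Fth1 and Ftl1 were not called, with 457098 ± 114586 against 515364 ± 10344 and 474877 ± 129716 against 354338 ± 5055. Ltf, Lcn2 and Hp, which bind iron, siderophores and hemoglobin outside the cell, had the widest gaps of the list (10.47 ± 0.60, 9.33 ± 0.18 and 7.47 ± 0.17). Ltf and Lcn2 are also neutrophil granule genes, whose summed level is given below with the other marrow cells. How far those cells contribute to the iron list was not tested.

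Receptor families differed in direction. Among 17 Toll-like receptors and co-receptors, which sense microbial products, 6 were higher and 6 lower. These shares (35.3% each) were near those of all genes tested (39.2% higher and 32.6% lower). Tlr2, the receptor for bacterial lipoproteins, was at 31106, 26015 and 27549 in the resident libraries and 3999 and 4005 in the BMDM libraries, with no overlap (2.81 ± 0.11). The sensors of single-stranded and ribosomal RNA, Tlr8 and Tlr13, were lower (-3.04 ± 0.12 and -2.46 ± 0.22), and Tlr1, a partner of Tlr2 (-2.65 ± 0.23). Tlr4, the LPS receptor, stood at 1607, 1409 and 1802 in the resident libraries and 2192 and 2389 in the BMDM libraries and was lower by a small margin (-0.52 ± 0.11, adjusted p = 0.00146). Tlr3 and Tlr9, for double-stranded RNA and unmethylated DNA, were higher (1.44 ± 0.17 and 1.34 ± 0.13).

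C-type lectins, which bind sugars, included genes at the lowest listed value in both BMDM libraries. Of 24, 14 were higher and 8 lower. Cd209f was at 2356, 1409.7 and 1463 in the resident libraries and 1.00 and 1.00 in the BMDM libraries, at least 637-fold higher when 3 reads are allowed in each BMDM library, and Cd209g at 392, 183 and 153 in the resident libraries and 1.00 and 1.00 in the BMDM libraries, at least 88.8-fold higher. All resident libraries held many reads of these genes. Clec7a, the beta-glucan receptor dectin-1, was lower (2013 ± 206 against 15171 ± 905, -2.92 ± 0.10), and Cd207, langerin, was at 7.13, 2.85 and 3.81 in the resident libraries and 213 and 176 in the BMDM libraries, so that here the resident libraries were near the lowest value (-5.20 ± 0.80).

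Scavenger receptors were split. Of 14, 7 were higher and 6 lower, with a median of 0.29 that changed sign, to -0.05, under quantile scaling. Beside Cd163, Marco, which binds bacteria and particles, was at 1324, 1096 and 998 in the resident libraries and 33.7 and 26.5 in the BMDM libraries (5.20 ± 0.17), and Stab2, which clears hyaluronan, at 1208, 1129 and 1186 in the resident libraries and 90.2 and 57.6 in the BMDM libraries (4.01 ± 0.20). Its relative Stab1 went the other way, at 439, 809 and 842 in the resident libraries and 14043 and 11928 in the BMDM libraries (-4.27 ± 0.29). So did the receptors for modified lipoproteins: Msr1 was lower (-3.21 ± 0.14) and Cd36 (-2.96 ± 0.31).

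Complement receptors were mostly lower, 8 of 10 with a median of -1.89. C3ar1 and C5ar1, which bind the fragments C3a and C5a, stood at 2272, 1631 and 1577 in the resident libraries and 25919.6 and 25078 in the BMDM libraries, and at 1532, 1800.1 and 2143 in the resident libraries and 13611 and 12452 in the BMDM libraries, respectively (-3.82 ± 0.16 and -2.85 ± 0.13). Vsig4, which takes up particles coated with complement, was an exception (328 ± 128 against 27.4 ± 1.34, 3.47 ± 0.34). Of 9 Fc receptor genes, 3 were higher and 4 lower (33.3% and 44.4%, against 39.2% and 32.6% of all genes tested). Fcgr3 and Fcgr1, activating receptors for IgG, were lower (-2.26 ± 0.13 and -1.18 ± 0.10), and Fcrls was among the widest gaps in the whole table (4.46, 19.9 and 5.72 in the resident libraries and 1211 and 1206 in the BMDM libraries, -7.05 ± 0.50). Fcgrt, which salvages IgG inside the cell, was higher (2.55 ± 0.24). Fcmr and Fcer2a, receptors for IgM and IgE known from B cells, were higher as well (3.42 ± 0.24 for Fcmr, and 36.6, 32.3 and 41.0 against 1.00 and 4.57 for Fcer2a), and B cell transcripts were higher in the same libraries.

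Receptors for dying cells differed gene by gene, 9 higher and 8 lower of 19 (47.4% and 42.1%, against 39.2% and 32.6% of all genes tested). Axl and Mertk, kinases that bind phosphatidylserine through a bridging ligand, were both higher, Axl at 64722, 49412 and 48533 in the resident libraries and 3801 and 4509.5 in the BMDM libraries (3.70 ± 0.16). The bridging ligands themselves were lower: Gas6, the ligand of Axl (-2.59 ± 0.25), and Mfge8, which links dying cells to integrins (-6.91 ± 0.35). Mfge8 was listed at 102, 241 and 183 in the resident libraries and 18777 and 21184 in the BMDM libraries, one of the widest gaps against resident libraries. Of its integrin partners, Itgb3 was higher (3.09 ± 0.44) and Itgb5 lower (-2.15 ± 0.14), and Itgb3 is also a platelet gene.

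Chemoattractant receptors were mostly higher, 13 of 19, with a median of 3.27, which becomes 2.95 with every gene unread in BMDM set to its bound. The widest gaps were in Fpr2 (2086, 2153 and 2578 against 8.20 and 17.4), Fpr1 (1619.6, 1455 and 1697 against 21.0 and 12.8), Ltb4r1 (765, 1193 and 1436 against 7.29 and 16.5) and Cxcr2 (1405, 1431 and 2039 against 20.1 and 15.5), receptors by which neutrophils follow formylated peptides, leukotriene B4 and CXC chemokines. The lowest resident value was in replicate 1 for Fpr2, Ltb4r1 and Cxcr2 and in replicate 2 for Fpr1. Mature neutrophil genes summed to 0.390%, 0.605% and 0.760% of the resident libraries. The part of neutrophils in these differences was not tested. Of this list, 4 genes were called lower. Among them were Cx3cr1, at 284, 318 and 442 in the resident libraries and 1824 and 1859.9 in the BMDM libraries (-2.43 ± 0.20), Ccr1 (-1.94 ± 0.17) and Ccr2 (-1.44 ± 0.26). Monocytes and macrophages use these receptors. Cmklr1 and Cxcr3 were not called. Cxcr4, which holds cells in the marrow, was higher at 11297, 7755 and 9586 in the resident libraries and 4917 and 4776 in the BMDM libraries (0.96 ± 0.14).

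Among 41 cytokine and growth factor receptors, 25 were higher and 12 lower. Beside Csf1r, Csf2ra, a chain of the GM-CSF receptor, was lower (-1.70 ± 0.13), as was Csf2rb2 (-2.38 ± 0.16). Il7r, the interleukin 7 receptor, was at 662, 504 and 632 in the resident libraries and 10651 and 10727 in the BMDM libraries and so lower in the resident libraries (-4.16 ± 0.20). Il15ra, which presents interleukin 15 to neighbouring cells, was at 2762, 2655 and 1826 in the resident libraries and 69.3 and 63.1 in the BMDM libraries, with a difference of 5.15 ± 0.15. Kit and Csf3r, the receptors for stem cell factor and G-CSF, were higher by 4.38 ± 0.37 and 2.90 ± 0.15. They also mark progenitors and neutrophils, whose other transcripts were higher in the same libraries.

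Integrins, purine receptors and paired immune receptors completed the surface. Of 23 integrin genes, 12 were higher and 8 lower (52.2% and 34.8%, against 39.2% and 32.6% of all genes tested). Itgad, the alpha D chain known from red pulp macrophages, was at 21161, 14966 and 16975 in the resident libraries and 140.4 and 136 in the BMDM libraries (6.97 ± 0.14), whereas the related Itgax and Itgam were lower (-2.62 ± 0.16 and -1.68 ± 0.14). Itga2b, the platelet alpha IIb chain, was higher by 5.35 ± 0.44. Of 16 purine and adenosine genes, 10 were higher. Adora2a, the adenosine receptor that dampens inflammation, was at 1262, 1138 and 696 in the resident libraries and 41.0 and 32.9 in the BMDM libraries (4.73 ± 0.24), while P2rx7, the ATP-gated channel that triggers interleukin 1 release, was lower at 449, 322 and 400.1 in the resident libraries and 1539 and 1442 in the BMDM libraries (-1.94 ± 0.16). Of 21 paired receptors, 13 were higher and 6 lower, Treml2 and Pilrb1 by 4.98 ± 0.23 and 4.64 ± 0.10 on the high side, Pirb and Siglecf (-0.90 ± 0.11 and -1.65 ± 0.21) on the low side.

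**Figure D3:**
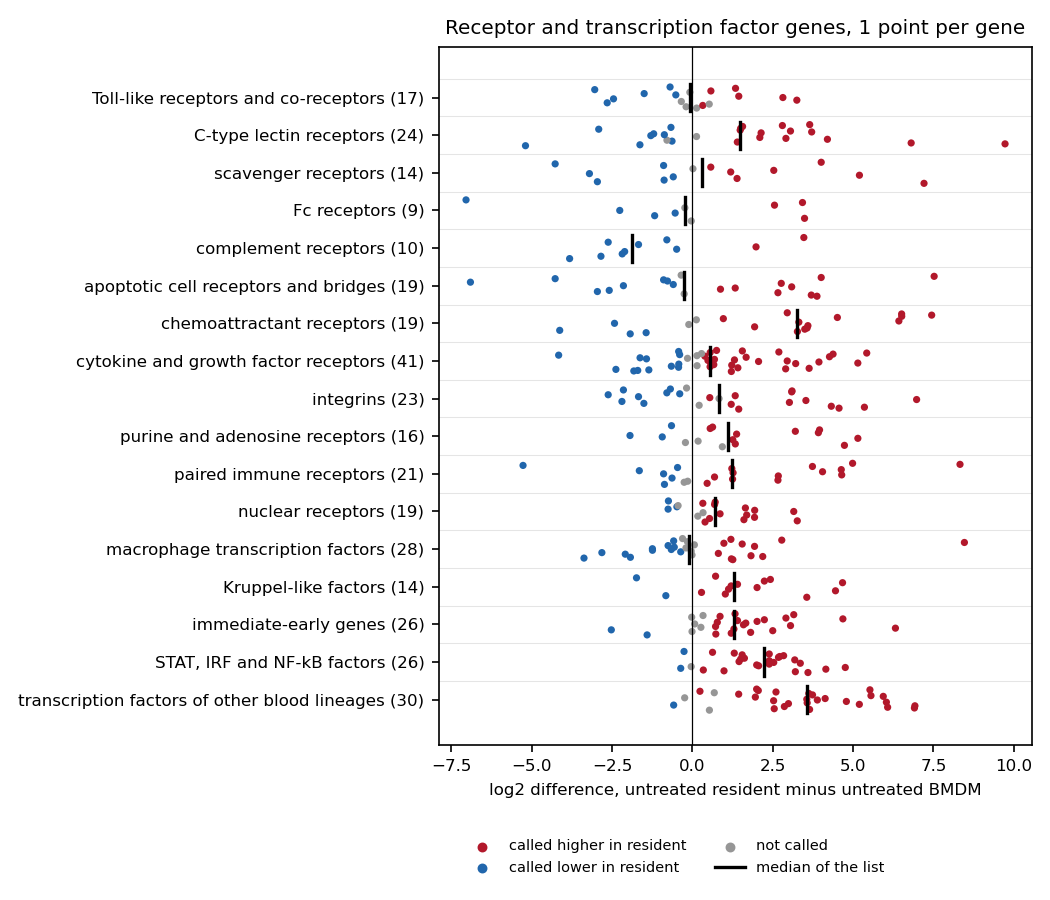
Log2 difference between untreated resident and BMDM libraries (x axis) for each tested gene of the receptor and transcription factor lists, with the number tested in brackets. Red, blue and grey points are genes called higher, called lower and not called, and black bars are list medians: that of complement receptors (-1.89) lies furthest left and those of chemoattractant receptors and of factors of other lineages lie furthest right.

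Transcription factors of the macrophage program numbered 11 higher and 11 lower of 28 (39.3% each). These shares were near those of all genes tested (39.2% higher and 32.6% lower). Spi1, which codes for the lineage factor PU.1, was higher at 28018, 23631 and 24238 in the resident libraries and 13113 and 12500.3 in the BMDM libraries (0.98 ± 0.12). Irf8, its partner in monocytes, was not called (4912 ± 164 against 5048 ± 44.2). Maf, a factor that restrains division in mature macrophages, was lower (-1.24 ± 0.11). The C/EBP factors went apart: Cebpb stood at 45732, 34084 and 33025 in the resident libraries and 7757 and 8602 in the BMDM libraries (2.19 ± 0.19) and Cebpa at 2521, 1801 and 2538 in the resident libraries and 8397 and 8842 in the BMDM libraries (-1.93 ± 0.21). Bhlhe41 and Id3, both tied to macrophage identity in other tissues, were lower (-3.38 ± 0.28 and -2.82 ± 0.33), and Tfec, a MITF relative, was higher by 2.78 ± 0.17.

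Nuclear receptors were mostly higher, 13 of 19 with 3 lower. Nr1h3, the oxysterol receptor LXR alpha, stood at 6779.7, 5718 and 6298 in the resident libraries and 1644 and 1631 in the BMDM libraries with no overlap (1.93 ± 0.11), while Pparg, the lipid receptor of alveolar macrophages, was lower at 759, 632 and 793 in the resident libraries and 1211 and 1242 in the BMDM libraries (-0.76 ± 0.12). The clock repressor Nr1d1 and the inducible Nr4a3 were higher by 3.26 ± 0.23 and 3.15 ± 0.14. Kruppel-like factors were higher in 12 of 14 cases, led by Klf5, at 37.5, 73.1 and 117 against 2.73 and 1.00, and by Klf15, higher by 4.45 ± 0.41. Immediate-early genes, which respond within minutes to handling or stimulation, were higher in 19 of 26. Fosl1 was at 2490.0, 2011 and 2160.4 in the resident libraries and 35.6 and 20.1 in the BMDM libraries (6.32 ± 0.23) and Maff at 8768, 6148 and 5823 in the resident libraries and 252 and 277 in the BMDM libraries (4.68 ± 0.16). Fos and Atf3 were the members called lower (-2.53 ± 0.10 and -1.41 ± 0.10).

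The factors that carry inflammatory and interferon signals were higher nearly throughout, 23 of 26 with 2 lower and a median of 2.22. Irf7, the amplifier of type I interferon, was at 23899, 28011 and 21467 in the resident libraries and 836 and 967 in the BMDM libraries, every resident library far above BMDM (4.76 ± 0.12). Irf4 and Bcl3 were higher by 4.15 ± 0.09 and 3.59 ± 0.12. Nfkbia, the inhibitor that NF-kB induces to stop itself, was at 36086, 29382 and 24724 in the resident libraries and 2923 and 2879 in the BMDM libraries (3.36 ± 0.15, adjusted p = 2.2e-08). Stat6 and Irf5 were the members called lower (-0.26 ± 0.07 and -0.37 ± 0.08), and the call of Stat6 was lost without BMDM replicate 1 (-0.25). The 250 bases before the start of Nfkbia, from RefSeq on GRCm38.p6 (chr12:55492648-55492897, minus strand), are shown because they hold a match to the kB motif (GGGA, any base, TTTCC), in capitals, 29 to 20 bases before the start.
Nfkbia: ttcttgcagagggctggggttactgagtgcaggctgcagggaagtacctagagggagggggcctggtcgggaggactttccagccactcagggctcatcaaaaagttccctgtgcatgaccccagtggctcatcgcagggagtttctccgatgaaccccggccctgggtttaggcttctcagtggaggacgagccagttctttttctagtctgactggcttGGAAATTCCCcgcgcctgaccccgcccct
The motif, sought on both strands, was found in 2 of the 22 factors of this list with such a window (Nfkb2 and Nfkbia) and in 0.506% of the 10473 tested genes with one. A match is a description of the letters and not evidence of binding.

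Transcripts of inflammatory products were higher in the resident libraries, though these had received no LPS. Of 28 cytokine and chemokine genes, 24 were higher and 3 lower, with a median of 3.81, and their sum was 1.40%, 1.39% and 1.01% of the resident libraries and 0.339% and 0.319% of the BMDM libraries. Il1b, interleukin 1 beta, was listed at 33295, 26496 and 20716 in the resident libraries and 249 and 240.4 in the BMDM libraries (6.74 ± 0.17, adjusted p = 6.6e-10). Il1a stood at 56442, 44640.1 and 32619 in the resident libraries and 93.9 and 148 in the BMDM libraries (8.51 ± 0.23), and the T cell attractant Ccl5 at 47666, 39074 and 20491 in the resident libraries and 125 and 162 in the BMDM libraries (7.88 ± 0.30). Cxcl10, the interferon-induced attractant of T cells, was at 82778, 92779.6 and 61338 in the resident libraries and 648 and 577 in the BMDM libraries (6.99 ± 0.17). For all of these the lowest resident library lay far above the highest BMDM library. Ccl6, Igf1 and Ccl9 were lower (-3.33 ± 0.31, -2.23 ± 0.11 and -1.08 ± 0.13). The window before the Cxcl10 start (chr5:92348890-92349139, minus strand, GRCm38.p6) is shown for its match to the interferon response motif (GAAA, 2 of any base, GAAA), in capitals, 213 to 204 bases before the start.
Cxcl10: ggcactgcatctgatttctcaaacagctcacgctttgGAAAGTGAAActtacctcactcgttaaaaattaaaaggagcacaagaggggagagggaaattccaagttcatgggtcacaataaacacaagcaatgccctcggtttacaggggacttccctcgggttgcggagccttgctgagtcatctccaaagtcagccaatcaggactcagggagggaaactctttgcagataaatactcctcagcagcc
That motif was in 1 of 20 cytokine windows and in 3.37% of tested genes with a window, and the kB motif in 4 of 20 (Il6, Csf1, Cxcl1 and Cxcl2), which were named for holding the motif.

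Genes of antigen presentation were higher in 13 of 20 cases. The costimulatory genes Cd40, Cd83 and Cd86 led, Cd40 at 5932, 5170.4 and 2953 in the resident libraries and 244 and 230.3 in the BMDM libraries (4.24 ± 0.29), Cd83 by 4.07 ± 0.16 and Cd86 by 3.48 ± 0.16. Tap1, part of the peptide transporter of the class I pathway, was higher by 3.10 ± 0.09. The class II chain Cd74 was not called (50566 ± 27138 against 56194 ± 525). Complement components were higher in 11 of 14, in contrast to complement receptors. Cfb, factor B of the alternative pathway, was at 6567, 5977 and 3784 in the resident libraries and 41.9 and 40.2 in the BMDM libraries (6.98 ± 0.20) and C2 at 1155, 1021 and 966 in the resident libraries and 21.0 and 31.1 in the BMDM libraries (5.30 ± 0.16).

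Most metabolic lists had more genes lower than higher in resident libraries, and sterol synthesis had none higher. Of 25 sterol genes, 0 were higher and 23 lower, with a median of -1.33. Sqle, squalene epoxidase, was at 236, 390.4 and 367 in the resident libraries and 2935 and 2763 in the BMDM libraries, all resident values well below BMDM (-3.13 ± 0.22, adjusted p = 6.0e-07). Cyp51, a late step towards cholesterol, was at 504, 566 and 648 in the resident libraries and 3480.4 and 3100.2 in the BMDM libraries (-2.53 ± 0.11). Fatty acid synthesis and desaturation went the same way, 12 lower and 3 higher of 16. The desaturases Scd2 and Fads1 were lower (-3.24 ± 0.21 and -2.70 ± 0.11), while Srebf1, a lipogenic factor that LXR induces, was higher by 0.77 ± 0.14.

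Of 21 lipid handling genes, 6 were higher and 12 lower. Abcg1, which exports cholesterol to HDL, was at 28273, 20294 and 19521 in the resident libraries and 5037 and 5398 in the BMDM libraries (2.10 ± 0.15), Ch25h, which makes an oxysterol, was higher by 2.66 ± 0.36, and the fatty acid binding gene Fabp4 by 3.47 ± 0.25. Gpnmb, a lysosomal stress glycoprotein of lipid-laden macrophages, was at 3310.5, 1664 and 1716 in the resident libraries and 349196 and 346160.0 in the BMDM libraries. No resident library came near the BMDM values, and the difference was -7.36 ± 0.40. Pltp and Spp1, the phospholipid transfer protein and osteopontin, were lower (-4.02 ± 0.14 and -3.84 ± 0.23). Apoe was not called (152298 ± 51487 against 157668 ± 13228).

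Glycolytic genes were lower in 14 and higher in 7 of 27. Hk2, hexokinase 2, was higher at 5184, 4093 and 3685 in the resident libraries and 1741 and 1649 in the BMDM libraries (1.34 ± 0.13). So were the glucose carrier Slc2a3 (2.94 ± 0.34) and the activator Pfkfb3 (2.93 ± 0.21), while the late enzyme Pgam1 and the lactate exporter Slc16a3 were lower (-2.17 ± 0.07 and -1.95 ± 0.27). Aldoc was at 31.2, 18.0 and 18.1 in the resident libraries and 665 and 633 in the BMDM libraries (-4.84 ± 0.26). Of 8 pentose phosphate genes, 2 were higher and 4 lower (25% and 50%, against 39.2% and 32.6% of all genes tested). G6pdx, the entry step, was lower (-0.59 ± 0.10).

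Mitochondrial energy genes were lower by small margins. Of 25 citrate cycle genes, 16 were lower and 2 higher, Idh1 (-1.69 ± 0.18) and Fh1 (-1.14 ± 0.14). Of 72 respiratory chain and ATP synthase genes, 50 were lower and 2 higher. Their median was -0.43, against 0.08 for all genes. Of the subunits, Ndufc1 had the widest gap, at 287, 378 and 355 in the resident libraries and 799 and 796 in the BMDM libraries (-1.24 ± 0.14), and Ndufs8 was higher (0.64 ± 0.08). Fatty acid oxidation was lower in 9 of 15, with Hadh and Acaa2 lower (-1.77 ± 0.17 and -1.71 ± 0.12).

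Arginine and glutathione genes were more often higher than lower. Of 14 arginine, polyamine and itaconate genes, 9 were higher and 3 lower. Irg1, which makes itaconate from the citrate cycle, was at 26683, 23618 and 22494 in the resident libraries and 789 and 837 in the BMDM libraries (4.89 ± 0.13), and Nos2 and Arg1, which compete for arginine, were both higher (5.81 ± 0.53 and 3.78 ± 0.19). Arg1 was listed at 423, 419.9 and 518 in the resident libraries and 31.9 and 32.0 in the BMDM libraries. Of 25 NRF2 and glutathione genes, 14 were higher and 7 lower. Slc7a11, the cystine carrier, and Gsr, glutathione reductase, were higher by 3.34 ± 0.14 and 3.02 ± 0.09, while Nfe2l2, the gene for NRF2 itself, was lower (-0.57 ± 0.09), as was Srxn1 (-1.33 ± 0.12). The serine and one-carbon enzymes Mthfd2 and Phgdh were higher (3.23 ± 0.11 and 2.44 ± 0.21), and the purine and pyrimidine enzymes Atic and Cad lower (-1.69 ± 0.10 and -1.46 ± 0.17), within a list of 26 that divided 8 higher to 14 lower (9 lower without BMDM replicate 1).

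Lysosomal genes were lower in 23 and higher in 8 of 43. The cathepsins Ctsl and Ctss were at 11468, 7898 and 6313 in the resident libraries and 72367 and 73720.5 in the BMDM libraries, and at 38593, 25940.1 and 21924 in the resident libraries and 184352 and 198064 in the BMDM libraries, respectively (-3.14 ± 0.22 and -2.77 ± 0.27). Atp6v0d2, a proton pump subunit, was lower (-5.96 ± 0.31). Acp5, tartrate-resistant acid phosphatase, was the widest exception, at 32426, 23633 and 20651 in the resident libraries and 576 and 666 in the BMDM libraries (5.34 ± 0.18). Of 7 genes of the oxidase that makes the respiratory burst, 3 were lower, among them Ncf4 (-1.11 ± 0.15), and 2 higher. Cell cycle genes were mostly not called, 27 of 40, with 2 higher and 11 lower. Of all genes tested, 28.1% were not called. Without resident replicate 1 the count higher was 8, without resident replicate 3 the count lower was 18, and without BMDM replicate 2 it was 7. Mki67, a marker of dividing cells, was at 2587, 3947 and 5093 in the resident libraries and 3676 and 3456 in the BMDM libraries and the groups overlapped. Ccnd2 was higher (5.39 ± 0.11) and Pcna lower (-1.53 ± 0.07).

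**Figure D4:**
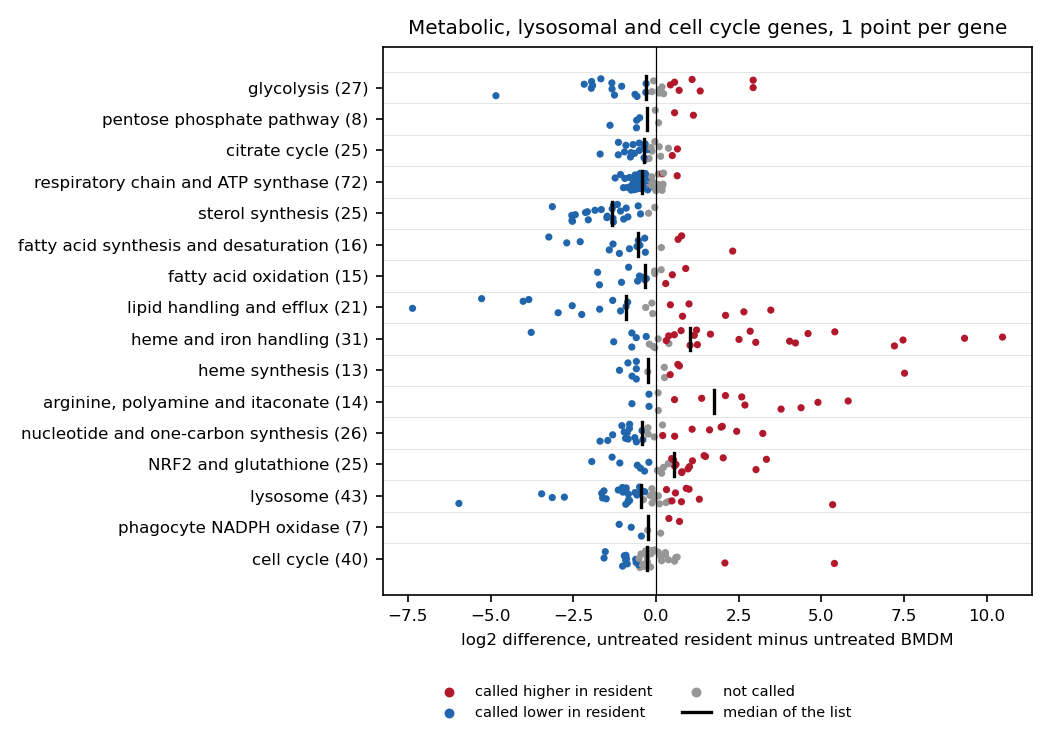
Log2 difference between untreated resident and BMDM libraries (x axis) for each tested gene of the metabolic, lysosomal and cell cycle lists, with the number tested in brackets. Red, blue and grey points are genes called higher, called lower and not called, and black bars are list medians: that of sterol synthesis (-1.33) lies furthest left, and the respiratory chain genes cluster just left of 0.

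Neutrophil and erythroid transcripts took a far larger share of the resident libraries, while the sums of monocyte genes overlapped between the groups. The sum of plasma cell genes was larger in BMDM, where the single gene Sdc1 made up most of it. The neutrophil genes tested were higher without exception. The lists of primary granules, secondary and later granules and mature neutrophils had 8 of 8, 16 of 16 and 20 of 20 higher. Their sums were 0.0279 to 0.0911% in the resident libraries and 0.000259 to 0.000394% in the BMDM libraries, 0.503 to 1.04% in the resident libraries and 0.00702 to 0.00721% in the BMDM libraries, and 0.390 to 0.760% in the resident libraries and 0.00427 to 0.00472% in the BMDM libraries, in that order. S100a8, a calcium-binding protein that fills the neutrophil cytoplasm, was at 39688, 57607 and 67506 in the resident libraries and 109 and 165 in the BMDM libraries (8.63 ± 0.22). Mpo, the myeloperoxidase of promyelocytes, was at 2618, 6201 and 8667 in the resident libraries and 24.6 and 47.5 in the BMDM libraries (7.21 ± 0.48), and Ltf, lactoferrin, at 16729, 24957 and 31884 in the resident libraries and 5.47 and 42.0 in the BMDM libraries. Replicate 1 had the lowest resident value of each. Cebpe, the factor of granulocyte maturation, was higher by 6.91 ± 0.33. Of the mature neutrophil genes, 8, among them the defining surface marker Ly6g, named outside the rule, were at the lowest listed value in both BMDM libraries.

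Genes of red cell precursors were also higher. Of 33 erythroid genes, 32 were higher and none lower, with a median of 5.19, which becomes 4.79 with every gene unread in BMDM set to its bound. Their sum was 0.185%, 0.222% and 0.294% of the resident libraries and 0.00662% and 0.00636% of the BMDM libraries, and 11 of them were at the lowest listed value in both BMDM libraries. Hbb-bs, a beta globin chain, was at 7519, 7652 and 10754 in the resident libraries and 3.65 and 6.40 in the BMDM libraries (10.51 ± 0.23). Gata1, a transcription factor of this list, was at 289.8, 799.8 and 516 in the resident libraries and 10.0 and 15.5 in the BMDM libraries (5.19 ± 0.44). Klf1 was at 37.5, 53.2 and 73.3 against 2.73 and 4.57. Among resident libraries Gata1 was highest in replicate 2, and Klf1 and Hbb-bs in replicate 3. Alas2, which starts heme synthesis in red cell precursors, was at 691, 675 and 938 in the resident libraries and 2.73 and 3.66 in the BMDM libraries and was higher by 7.51 ± 0.23, while the ubiquitous heme synthesis gene Fech was lower (-1.11 ± 0.11). The window before the Alas2 start (chrX:150547167-150547416, plus strand, GRCm38.p6) is shown because it holds, in capitals, the complement of the GATA motif AGATAA, 86 to 81 bases before the start.
Alas2: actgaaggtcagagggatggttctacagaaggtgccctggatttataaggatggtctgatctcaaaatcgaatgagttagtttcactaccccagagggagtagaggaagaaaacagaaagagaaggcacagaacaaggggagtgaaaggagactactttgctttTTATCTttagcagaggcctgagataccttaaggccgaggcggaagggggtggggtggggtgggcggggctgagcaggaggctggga
This motif was in 10 of 24 erythroid windows, against 7.56% of tested genes with a window.

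Lymphoid, platelet and progenitor genes followed. B lineage genes were higher in 20 of 21, with sums of 0.0261 to 0.0574% in the resident libraries and 0.0140 to 0.0144% in the BMDM libraries. Cd79a, a chain of the B cell receptor, was at 1064, 1509 and 2208 in the resident libraries and 47.4 and 43.9 in the BMDM libraries (5.03 ± 0.25), and Rag1, which cuts receptor genes in precursors, was at least 180.4-fold higher. T and NK cell genes were higher in 22 of 24, but their summed level was small and close to that of BMDM in resident replicate 1 (0.00663 to 0.0137% in the resident libraries and 0.00592 to 0.00616% in the BMDM libraries). Under quantile scaling the count was 14. Megakaryocyte and platelet genes were higher in 18 of 19. Pf4, platelet factor 4, was at 3404, 10961 and 6583 in the resident libraries and 593 and 532 in the BMDM libraries (3.48 ± 0.44), again lowest in replicate 1 of the resident group. Stem and progenitor genes were higher in 15 of 15, with Kit at 429.9, 723 and 882 in the resident libraries and 20.1 and 45.7 in the BMDM libraries, and eosinophil, basophil and mast cell genes in 16 of 17.

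Monocyte genes were less uniform. Of 20, 14 were higher and 4 lower, and the sums overlapped (0.0800 to 0.133% in the resident libraries and 0.0994 to 0.106% in the BMDM libraries). Ly6c2, which marks inflammatory monocytes, was at 5307, 9167 and 9225 in the resident libraries and 51.0 and 56.7 in the BMDM libraries (7.13 ± 0.22), and S100a4 went the other way (-4.95 ± 0.20). Dendritic cell genes were higher in 12 of 15, a count of 7 when recovered reads were tested in place of log values, with Zbtb46 at 199, 164 and 139 in the resident libraries and 1.82 and 3.66 in the BMDM libraries and Itgax lower (-2.62 ± 0.16). Stromal, bone and vessel genes were higher in 27 of 30, and in 17 with a minimum of 100. Of the 31 listed, 13 were at the lowest listed value in both BMDM libraries. The sums of this list were 0.0497%, 0.0692% and 0.0529% of the resident libraries and 0.0190% and 0.0180% of the BMDM libraries. Cxcl12, the niche chemokine, was at 1219, 1298 and 711 in the resident libraries and 1.00 and 4.57 in the BMDM libraries. Osteoclast genes divided 8 to 5, Car2 and Acp5 higher (5.40 ± 0.15 and 5.34 ± 0.18) and Dcstamp, a fusion gene, lower (-5.19 ± 0.45). Of 7 plasma cell genes, 6 were higher, among them Jchain (7.56 ± 0.51), and 1 was lower, Sdc1, a syndecan, at 1051, 629.8 and 477 in the resident libraries and 13126 and 14179 in the BMDM libraries (-4.32 ± 0.33). Their sum was 0.0393%, 0.0363% and 0.0375% of the resident libraries and 0.0741% and 0.0743% of the BMDM libraries, so that it ran against the count. Sdc1 alone made up most of the BMDM sums, which were 18290 and 19280 normalized reads. It was a small part of the resident sums of 12170, 10060 and 9944. The share of the differences above that such cells carry was not tested. Of the transcription factors of other blood lineages, 26 of 30 were higher, the same libraries being high.

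**Figure D5:**
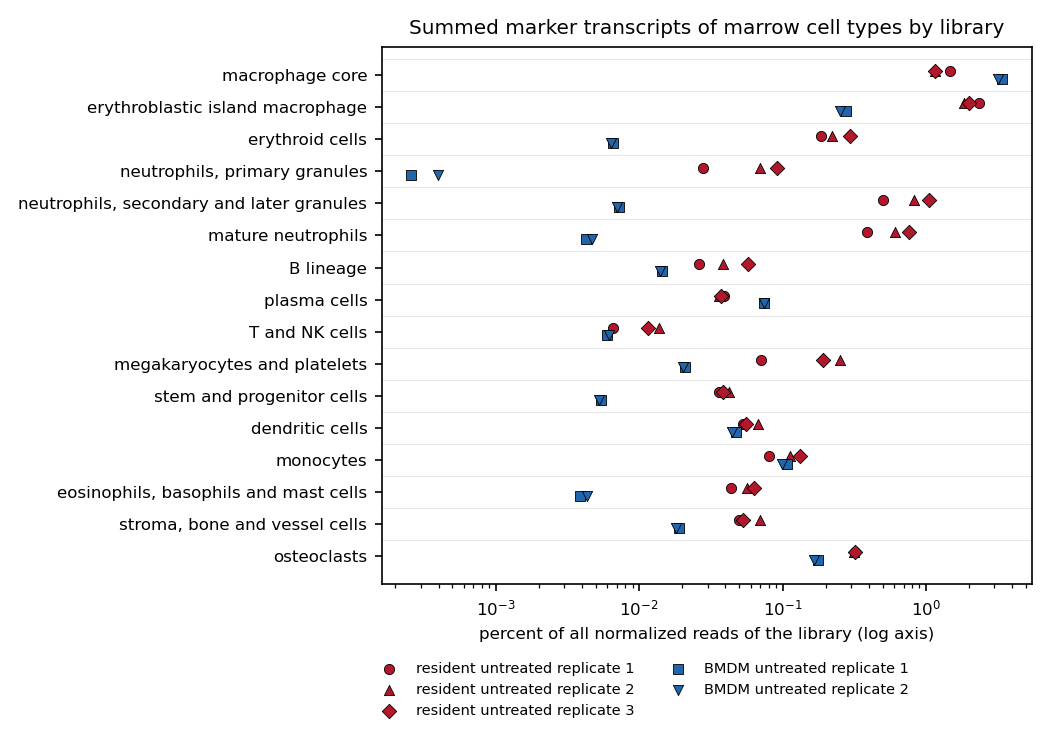
Percent of all normalized reads of each untreated library (log axis) taken by macrophage lists and by marker lists of other marrow cells, red for the 3 resident and blue for the 2 BMDM libraries, with a symbol per replicate. The neutrophil and erythroid sums are highest in resident replicate 3 and lowest in replicate 1, and all lie above both BMDM libraries.

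The widest gaps on the high side of the table were mostly in neutrophil and globin genes. By the naming rule they were Camp, at 15627, 27519.8 and 30406 in the resident libraries and 6.38 and 18.3 in the BMDM libraries (10.95 ± 0.36), Hbb-b1 (10.80 ± 0.26), Hbb-bs, Ltf, Retnlg (10.46 ± 0.23) and Ngp (10.13 ± 0.29), with Serpina3g and Serpina3f, protease inhibitors, of which Serpina3g was higher by 9.82 ± 0.23 and Serpina3f stood at 2956, 3436 and 2279 in the resident libraries and 1.00 and 4.57 in the BMDM libraries. Hbb-b2 and Hbb-bt had identical values in every library, so their reads cannot be told apart. On the low side Mamdc2 was at 1.00, 1.90 and 1.00 in the resident libraries and 2143 and 2232 in the BMDM libraries, and Galnt9 at 1.78, 1.00 and 1.00 in the resident libraries and 596 and 651 in the BMDM libraries. Npy, Mmp12 and Angptl2 were lower (-7.76 ± 0.40, -6.98 ± 0.50 and -6.98 ± 0.50), beside Gpnmb, Fcrls and Mfge8. Mmp12, macrophage elastase, was listed at 1188, 439 and 321 in the resident libraries and 68611 and 70803 in the BMDM libraries.

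The difference between the untreated groups was set beside the same comparison in the LPS-treated libraries (3 resident and 2 BMDM). Of the 5393 genes higher in the untreated resident libraries, 3456 (64.1%) were also called higher there and 858 (15.9%) lower. Of the 4490 lower in the untreated resident libraries, 2894 (64.5%) were also lower there and 396 (8.82%) higher. Among all tested genes, 36.7% were higher and 34.5% lower in the LPS-treated comparison. These comparisons use different libraries but share the fit's estimate of spread.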

How the data were processed

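Total RNA was sequenced from 10 libraries (NEBNext Ultra RNA, per the labels' protocols). HISAT 0.1.7 and the build mm10 are named in the submitters' processing notes, and the counter is not given in the sources used here. The deposited table holds 1 signal value per gene and library, never below 1. Values were whole multiples of a step per library (0.892 to 0.953 in the untreated libraries, tolerance 0.02), which gave the reads behind them. Values of log2(value + 1) were fitted with limma 3.58.1 (R 4.3.3) over all 10 libraries in 4 groups with a mean-variance trend, keeping genes that reached 10 in 2 or more libraries, and p-values were adjusted over all genes tested. The script was tested on simulated data. Genes were named by rule: a list of key genes, the 10 widest gaps in each direction, and in each of 52 lists up to 4 higher, 4 lower and 2 not called. Some genes that the rule names are not reported here. Of 1023 different genes in the lists, 996 were tested. Members and lists were chosen with earlier results of these data known, and lists are described by counts and medians without a set test. A fold against a group at the lowest value is a bound at 3 reads per library.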

Additional observations from a re-analysis of the deposited data

How the results depend on the processing

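The count of 9883 called genes stayed within 1.5 times of itself under the alternatives run, with 1 exception: requiring a difference of more than 2-fold in the test itself (limma treat) left 3534 genes, 2484 higher and 1050 lower, and 24 of the 190 genes compared lost their call. Leaving out 1 library at a time gave 4730 to 5434 genes higher and 3637 to 4458 lower, the fewest without BMDM replicate 1. Scaling moved the median gene from 0.08 to -0.18 (quantile), -0.08 (equal totals) and -0.09 (voom on recovered reads, an alternative chosen after seeing the data), and quantile scaling lowered the share of calls that were higher from 54.6% to 41.5%. Of the genes named, none that was called changed sign. Among those not called, Cd14 changed sign under quantile scaling (-0.18), equal totals (-0.033), array weights (-0.10) and voom (-0.035), and ran from -0.24 (without resident replicate 1) to 0.38 when 1 library was left out. Mki67 did so under quantile scaling (-0.29), equal totals (-0.10) and voom (-0.10), with a range of -0.16 (without resident replicate 3) to 0.33. Apoe did so under quantile scaling (0.18), with a range of -0.36 to 0.092 (without resident replicate 3). Some genes not called in the main fit were called elsewhere: Ftl1 (1.04) and Irf8 (-0.45) under quantile scaling, and Cd74 (-0.57) with array weights. The cause was not tested. List counts of 1 to 3 members moved by up to 3 under several settings, except that cell cycle genes called higher went from 2 to 9 with array weights and to 8 without resident replicate 1. Under limma treat many larger counts fell too. Counts lower went from 50 to 0 for the respiratory chain, 23 to 7 for lysosome and 23 to 12 for sterol synthesis. They went from 14 to 6 for glycolysis and 12 to 5 for core macrophage genes. Heme and iron genes called higher went from 20 to 12, and island genes from 19 to 14. With a minimum of 100, which leaves fewer genes to test, the counts higher were 7 for complement components, 10 for T and NK cells and 17 for stroma. The planned count models (edgeR, DESeq2) were not run, and voom on the recovered reads was run in their place. No paired analysis was possible because the replicate numbers used here only follow the order of deposit, and the labels give none that groups share.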
